A study of Arabidopsis thaliana with 16 samples.

Results

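The lncRNAs described here are the RNAs assembled from the seedling reads that the deposited coordinate table places over a pseudogene or a transposable element (TE). The table lists 79 such transcripts from 36 loci among 1212 assembled lncRNAs from 1032 loci. Of the 79, 52 transcripts from 19 loci have FPKM values (fragments per kilobase of transcript, scaled to the mapped fragments of the library), out of 1161 assembled lncRNAs and 36817 transcripts of all kinds with such values. All 52 lie over pseudogenes. None of the 26 TE transcripts (16 loci) has an FPKM row, nor has 1 pseudogene transcript, TCONS_00050280 of XLOC_026872, so their levels were not analysed here and only their sequence features are given.

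The study asked which lncRNAs respond to phosphate (Pi) starvation. Wild-type Col-0 seedlings were harvested as roots and shoots when 10 days old, after growth either on P- medium, in which 0.65 mM K2SO4 replaced the phosphate salt, or on P+ medium with 1.25 mM KH2PO4. Oligo(dT) beads split each RNA into bound poly(A)+ RNA and unbound poly(A)- RNA, and ribosomal RNA was depleted from the poly(A)- RNA. This gave 8 groups with 2 libraries each, 16 libraries in all: P- roots, P+ roots, P- shoots and P+ shoots, each as poly(A)+ and poly(A)-. All plants were of 1 genotype, and whole roots and whole shoots of seedlings were the units sampled.

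A pseudogene is a copy of a gene, or the remnant of one, that has lost the ability to encode the full protein, usually through frameshifts, premature stop codons or missing exons. Many plant pseudogenes still have a promoter and are transcribed and spliced. Their RNAs share stretches of sequence with the intact relative, so that short reads can be hard to place. TEs are mobile elements that plants normally keep silent through DNA methylation, small RNAs and repressive histone marks. Under Pi starvation the MYB factor PHR1 activates many genes through a short promoter element called P1BS (GNATATNC, where N is any base).

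Each of the 19 pseudogene loci with levels lay on the same strand as a transcribed pseudogene of the RefSeq annotation of TAIR10. None of the genes overlapped by the 36 loci has an FPKM row of its own, so the levels below are the only ones for these stretches. XLOC_008097 covers AT1G79245, a pseudogene of an unknown protein (chr1:29804297-29809514, minus strand). XLOC_018572 covers AT3G30214 (chr3:11859792-11861666, minus), XLOC_016479 covers AT3G56275 (chr3:20872831-20873719, plus), and XLOC_011108 covers AT2G04110 (chr2:1382492-1383518, minus). XLOC_016726 covers AT3G61020 (chr3:22575495-22577680, plus). For 3 loci the annotation names the ancestor: XLOC_013903 lies over a pseudogene of the nodulin MtN3 family of sugar transporters, XLOC_015007 over a leucine-rich repeat pseudogene and XLOC_029055 over an ABC transporter pseudogene. XLOC_018264 spans the pseudogene AT3G26134 and, beyond it, the annotated coding gene AT3G26135 on the same strand, and an annotated lncRNA lies opposite 236 of its bases. By the labels the reads of 1 replicate of each tissue were handled as unstranded, so reads of such opposite-strand pairs cannot be told apart in those libraries.

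Nearly all pseudogene and TE lncRNAs were spliced. Of the 53 pseudogene transcripts, 51 were spliced (96.2%), with a median of 5 exons, a median length of 1713 bases and a median GC content of 36.9%. Among the 26 TE transcripts 24 were spliced (92.3%), with medians of 3 exons, 1658 bases and 40.9% GC. The other 1122 nuclear assembled lncRNAs were spliced in 49.1% of cases, with medians of 1 exon, 1093 bases and 41.2% GC. Splicing was not part of the rule that chose the members, and since isoforms of 1 locus share exons, these shares are a description without a test.

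Intron ends were mostly canonical. The pseudogene lncRNAs had 110 distinct introns, of which 105 began with GT and ended with AG, 4 had GC and AG, and 1 had AT and AC. The TE lncRNAs had 37 introns of the GT and AG kind and 1 of the GC and AG kind. Among the 790 introns of the other assembled lncRNAs, 662 were of the GT and AG kind and 88 of the AT and AC kind. The single AT and AC intron of the pseudogene lncRNAs lies in TCONS_00003711 of XLOC_001820 (chr1:12386488-12386592, plus strand) and is shown whole, with its ends in capitals, because its splice sites differ from those of every other pseudogene intron.
XLOC_001820 intron: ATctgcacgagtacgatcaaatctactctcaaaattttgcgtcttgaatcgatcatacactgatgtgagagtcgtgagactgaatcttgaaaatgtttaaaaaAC

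XLOC_008097 was the most abundant of the loci and its isoforms differed mainly by intron retention. The leading isoform, TCONS_00015679, has 6 exons in 4771 bases, whereas TCONS_00015678 has 15 exons and TCONS_00015677 has 17. Of the 21 distinct introns of these other isoforms, 16 lie wholly inside exons of TCONS_00015679, which keeps 1807 bases of them. The shortest of the retained introns is shown with 15 flanking bases on each side (chr1:29808063-29808165, minus strand), with the GT and AG ends of the intron in capitals.
XLOC_008097 retained intron: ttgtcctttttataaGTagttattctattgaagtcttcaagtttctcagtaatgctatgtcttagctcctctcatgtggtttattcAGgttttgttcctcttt

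P1BS elements lay in the 2 kb upstream of 8 of the 19 loci with levels, and the nearest copy of each locus is shown, with the element in capitals, because this is the element through which PHR1 acts. The element reads the same on both strands, so one search covers both. By locus this is 42.1%, against 36.7% of the 988 loci of the other nuclear assembled lncRNAs, and in a window of 1 kb it is 4 of 19 (21.1%), against 19.5%, so the share of loci was near that of the others. By transcript 30 of 52 (57.7%) had an element, against 36.5% of the others, but the 12 isoforms of XLOC_009278 and the 7 of XLOC_018264 share their upstream regions. A match is only a run of letters, and no binding was measured here. The sites lie at chr1:12384954-12384985 (plus strand, XLOC_001820), chr1:12230671-12230702 (minus, XLOC_005935), chr2:8352035-8352066 (plus, XLOC_009278), chr3:1956962-1956993 (plus, XLOC_013903), chr3:9243276-9243307 (plus, XLOC_015007), chr3:4613638-4613669 (minus, XLOC_017616), chr3:9558725-9558756 (minus, XLOC_018264) and chr3:10403201-10403232 (minus, XLOC_018405). The elements of XLOC_005935 and XLOC_017616 were the closest, 255 and 295 bases before the start of the transcript.
XLOC_001820: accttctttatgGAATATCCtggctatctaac
XLOC_005935: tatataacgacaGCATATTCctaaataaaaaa
XLOC_009278: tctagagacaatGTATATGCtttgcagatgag
XLOC_013903: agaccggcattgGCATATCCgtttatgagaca
XLOC_015007: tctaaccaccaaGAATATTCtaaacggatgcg
XLOC_017616: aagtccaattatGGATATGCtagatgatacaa
XLOC_018264: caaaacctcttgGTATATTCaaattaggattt
XLOC_018405: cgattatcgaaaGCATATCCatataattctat

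The loci differed widely in how much of a coding relative they still carry. The longest isoform of XLOC_018572 matched the coding transcripts of AT1G35320 over 71.8% of its length, and the longest single alignment ran over 1153 columns with 91.5% identity. XLOC_016726 matched TBL32, a member of the TRICHOME BIREFRINGENCE-LIKE family of polysaccharide O-acetyltransferases, over 713 columns with 84.2% identity. XLOC_011108 matched AT1G04985 over 282 columns with 82.6% identity. By contrast, 2.28% of XLOC_008097 had a coding match, and XLOC_016479 and XLOC_018405 had none. One stretch of 100 bases of each alignment is shown with the differing bases in capitals, because these are the differences by which reads of the lncRNA and of its relative could be separated. The stretches lie at chr3:11861547-11861646 and chr1:12961220-12961319 (both minus), at chr3:22575698-22575797 (plus) and chr3:3458894-3458993 (minus), and at chr2:1382644-1382743 and chr1:1418548-1418647 (both minus).
XLOC_018572: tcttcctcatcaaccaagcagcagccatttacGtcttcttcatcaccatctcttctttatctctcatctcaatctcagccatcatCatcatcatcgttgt
AT1G35320: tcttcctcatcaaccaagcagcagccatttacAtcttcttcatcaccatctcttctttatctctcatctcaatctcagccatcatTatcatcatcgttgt
XLOC_016726: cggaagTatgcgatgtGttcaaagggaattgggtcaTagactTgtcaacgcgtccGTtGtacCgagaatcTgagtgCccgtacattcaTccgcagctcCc
TBL32: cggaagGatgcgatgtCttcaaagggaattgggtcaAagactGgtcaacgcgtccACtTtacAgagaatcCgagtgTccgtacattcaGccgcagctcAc
XLOC_011108: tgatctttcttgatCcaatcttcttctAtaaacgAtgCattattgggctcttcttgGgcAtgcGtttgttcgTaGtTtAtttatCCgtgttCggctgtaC
AT1G04985: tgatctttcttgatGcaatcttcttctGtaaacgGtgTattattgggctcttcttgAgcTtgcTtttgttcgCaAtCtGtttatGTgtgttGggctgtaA

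The stretch of XLOC_018572 differed from AT1G35320 at 2 of the 100 bases, that of XLOC_016726 from TBL32 at 12 and that of XLOC_011108 from AT1G04985 at 15. Copies at 95% identity or more over at least 100 bases covered 83.3% of XLOC_029562, 52.7% of XLOC_013903, 23.5% of XLOC_018572 and 4.85% of XLOC_015007, so the authors' counting could have split reads between these loci and their copies, and their values are uncertain to that extent. The other 15 loci with levels had no such copy.

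The TE loci could be described only by position and sequence. XLOC_001638 and XLOC_026620 lie over SADHU1-2 and SADHU1-3, members of the Sadhu family of non-coding retrotransposons, which in Arabidopsis are known for variable silencing between accessions. XLOC_001929 lies over a pseudogene of a Ulp1 protease family protein and XLOC_011478 over one of a putative replication protein A1, both of the kinds carried by DNA transposons. XLOC_015663 on chromosome 3 had 7 isoforms, and 97.4% of XLOC_024004 on chromosome 4 was covered by copies of at least 95% identity. P1BS elements lay upstream of 8 of the 16 TE loci.

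The FPKM tables do not give the depth of a library. By the study's supplement most reads of the shoot poly(A)- libraries came from organelles. Fewer nuclear reads thus stood behind the values listed there, zeros among them, than in the other libraries. The error of each value was judged from the 2 libraries of a group. The SD of the log2 difference between these libraries over all tested transcripts was 0.72 to 0.92 in 3 poly(A)+ groups and 1.31 in P+ roots, and 1.19 to 1.53 in the poly(A)- groups. The poly(A)+ libraries of P+ roots thus stood further apart than those of other poly(A)+ groups. For the 38 pseudogene transcripts tested the SD in P+ roots was 1.40. Marker genes checked the labels: the 8 shoot markers were lower in roots than in shoots and 9 of 10 root markers were higher in roots (poly(A)+, adjusted p under the 0.05 threshold), and all 10 Pi starvation markers were higher under P- in both tissues.

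Single pseudogene transcripts were mostly of low abundance. Their median per library was 0 to 4.24 FPKM, against 0.000345 to 4.49 FPKM for the other 1109 assembled lncRNAs, and it was the higher of the pair in 2 of 16 libraries. These medians count transcripts. The 52 come from 19 loci, whereas all 1161 assembled lncRNAs come from 996, so the level of a pseudogene locus is split over more isoforms. Locus sums were not compared with those of the others. Nevertheless, 50 of the 52 reached 1 FPKM in at least 1 library and 20 reached 10 FPKM. A mean of at least 1 FPKM, the limit for testing, was passed by 38 transcripts of 17 loci in the poly(A)+ libraries and by 34 transcripts of 13 loci in the poly(A)- libraries. XLOC_003126 and XLOC_006023 stayed below it in both fractions, with at most 1.49 FPKM and 1.14 FPKM in any library. Since isoforms of 1 locus share most of their exons, the sum over a locus is used below beside single transcripts. The sums of 3 loci include 7 transcripts of the same locus that the coordinate table classes as antisense and that are not members: they make up 81.7% of XLOC_004476, 46.7% of XLOC_009028 and 26.6% of XLOC_009278.

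**Figure D1:**
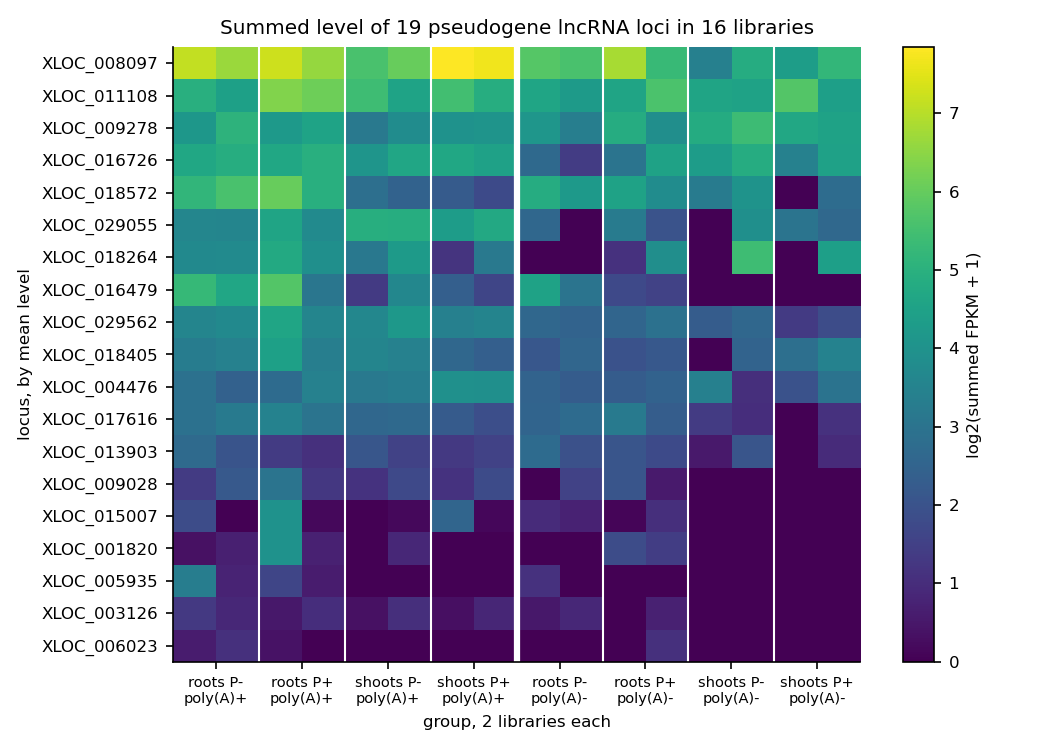
Heat map of the summed level, as log2(FPKM + 1), of the 19 pseudogene lncRNA loci (rows) in the 16 libraries (columns), poly(A)+ libraries first and, within each fraction, roots before shoots and P- before P+; brighter colours stand for higher levels. XLOC_008097 is the brightest row in the poly(A)+ libraries, with 229 FPKM at most, and XLOC_005935 is at 0 in every shoot library.

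By mean level XLOC_008097 led both fractions with 129 FPKM in poly(A)+ and 42.9 FPKM in poly(A)- RNA. It was followed in poly(A)+ RNA by XLOC_011108 (42.2 FPKM), XLOC_018572 and XLOC_016726 (24.1 FPKM each) and XLOC_029055 (19.9 FPKM), and in poly(A)- RNA by XLOC_011108 (28.9 FPKM), XLOC_009278 (22.7 FPKM), XLOC_016726 (14.3 FPKM) and XLOC_018572 (13.8 FPKM). Neighbours in these orders overlapped in their library values except that XLOC_008097 lay above every other locus in each of the 8 poly(A)+ libraries. Groups without overlap were common among all loci and genes. In poly(A)+ RNA all P- values lay above all P+ values for 25.7% in roots and 39.6% in shoots, and below for 19.3% and 25.3%. In poly(A)- RNA of roots 18.1% lay above. Every root library exceeded every shoot library for 28.1% (poly(A)+) and 24.2% (poly(A)-). All poly(A)+ values exceeded all poly(A)- values for 12.9% in roots and 18.2% in shoots, and lay below them for 6.96% and 7.31%. The next paragraphs take Pi starvation first, then tissue and then the poly(A) fraction.

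Few pseudogene lncRNAs were called under Pi starvation in shoots, and most of the shares below were near those of all features. The exception was transcripts by the study's rule, with a lower share. In poly(A)+ RNA of P- shoots against P+ shoots 2 of 38 transcripts passed the study's own rule (at least a 2-fold change with p under 0.05 before adjustment), both lower, where 12.9% of all 27395 transcripts did. At an adjusted p of 0.05 (limma, Benjamini-Hochberg over all transcripts) 1 of 38 passed, where 1.92% of all did. On locus sums 2 loci were higher and 1 lower by the study's rule among 17 tested (15.1% of all 20951 loci and genes passed), and 1 passed the adjusted threshold, lower (6.6% of all). The median log2 change of the 17 loci was 0.35 and that of all loci and genes 0.14.

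The locus that fell was XLOC_008097. Its summed level was 47.7 and 63.7 FPKM in the P- shoot poly(A)+ libraries, against 229 and 205 FPKM in the P+ shoot libraries. Both P- values lay far below both P+ values, and the P- shoots were also below all 4 root libraries, which had 139 and 100.5 FPKM in P- roots and 149 and 95.4 FPKM in P+ roots. The log2 change was -1.95 in shoots (SE 0.30, adjusted p = 0.0116) and -0.01 in roots (SE 0.30, adjusted p = 0.992). The difference between these responses was 1.94 on the log2 scale (SE 0.43, adjusted p = 0.0585), which missed the adjusted threshold and passed the study's rule. With 2 libraries a group the shoot call needed all of them: it was lost without P- library 1 (adjusted p = 0.141), P- library 2 (0.0662), P+ library 1 (0.114) or P+ library 2 (0.0977), and also when all 16 libraries were fitted together (0.0888), while the log2 change stayed between -2.16 and -1.75 without any 1 library. Whether less RNA per cell or fewer cells of a type lay behind a lower level cannot be told apart in such bulk samples.

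All 3 isoforms of the locus had lower values in P- shoots, and the intron-retaining isoform described above was the one called. TCONS_00015679 had 28.9 and 53.4 FPKM in P- shoots, against 186 and 164 FPKM in P+ shoots (log2 change -2.12, SE 0.37, adjusted p = 0.0436, lost without any 1 of the 4 libraries at 0.132 to 0.300). TCONS_00015678, the isoform with 15 exons, had 8.81 and 4.51 FPKM in P- shoots, against 31.7 and 26.8 FPKM in P+ shoots, a change of -2.04 (SE 0.67, adjusted p = 0.174) that passed the study's rule only. TCONS_00015677 had 9.98 and 5.80 FPKM in P- shoots, against 11.3 and 14.4 FPKM in P+ shoots, and passed neither rule (-0.67, SE 0.53, adjusted p = 0.574), although both P- values lay below both P+ values. In poly(A)- RNA the sum of the locus was 9.60 and 28.1 FPKM in P- shoots and 19.5 and 35.3 FPKM in P+ shoots, and these ranges overlapped.

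**Figure D2:**
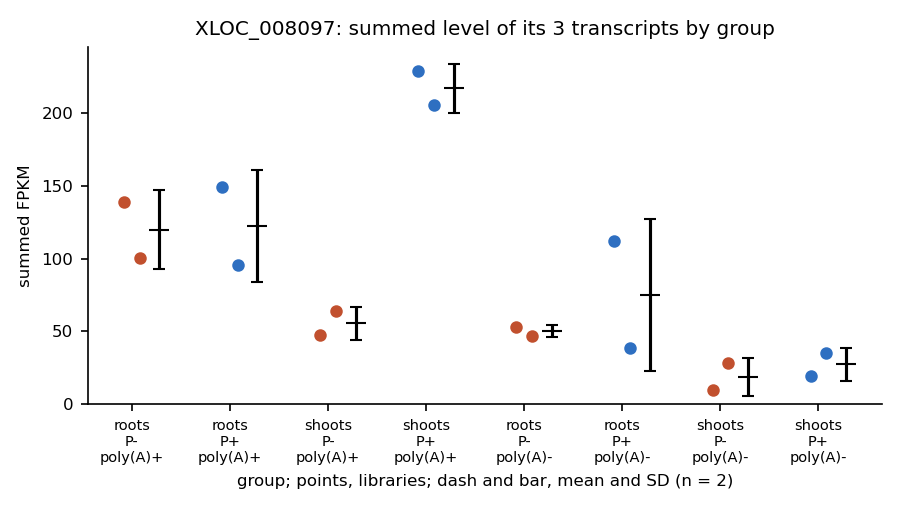
Summed FPKM of XLOC_008097 (vertical axis, linear) in each of the 8 groups, with 1 point per library and the mean and SD of the 2 libraries; within each tissue and fraction P- stands left of P+. The P- shoot poly(A)+ points (47.7 and 63.7 FPKM) lie below the P+ shoot points (229 and 205 FPKM), while the root poly(A)+ groups overlap.

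Root markers moved with the shoot comparison. The summed level of the 10 root markers was 137 to 172 FPKM in P- shoots, against 29.8 to 34.7 FPKM in P+ shoots, and 3 of the 10 rose at the adjusted threshold. The group mean was under 0.1 FPKM for 1 of the 10 in P- shoots and for 4 in P+ shoots. Without PHT1;1, a Pi transporter that itself responds to Pi, the sums were 53.4 to 68.5 FPKM in P- shoots and 19.8 to 23.5 FPKM in P+ shoots. In roots all 10 markers summed to 1264 to 1351 FPKM under P- and 1168 to 1517 FPKM under P+. Without PHT1;1 the root sums were 452 to 479 FPKM under P- and 840 to 964 FPKM under P+. The 8 shoot markers summed to 10039 to 12942 FPKM in P- shoots and 11389 to 14280 FPKM in P+ shoots. The part of these shifts in the level of XLOC_008097 was not tested.

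A pair of loci passed the study's rule in shoots in the other direction and missed the adjusted threshold. XLOC_018405, over the pseudogene AT3G27997, had 11.0 and 10.0 FPKM in P- shoots, against 5.20 and 4.15 FPKM in P+ shoots (log2 change 1.02, SE 0.39, adjusted p = 0.155). Its groups did not overlap, and its response differed between the tissues by -1.55 (SE 0.55, adjusted p = 0.168), since P- roots had 8.77 and 10.0 FPKM and P+ roots 20.9 and 9.17 FPKM. XLOC_018264 had 7.90 and 18.4 FPKM in P- shoots, against 1.26 and 8.02 FPKM in P+ shoots (log2 change 1.54, SE 0.66, adjusted p = 0.201), and its groups overlapped. With the shoot libraries fitted alone XLOC_018405 passed the adjusted threshold (0.0308) and XLOC_018264 did not (0.164). Bringing all libraries to 1 median ratio lowered the median log2 change of all loci and genes by 0.13, and neither of these loci then passed the study's rule, while the fall of XLOC_008097 did. In poly(A)- RNA of shoots XLOC_018405 went the other way, with 0 and 4.63 FPKM under P- and 6.27 and 10.2 FPKM under P+. Those groups did not overlap, as for the 15.1% of all loci and genes that were lower there without overlap. The change (-1.93, SE 0.83, adjusted p = 0.335) passed neither rule.

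In roots no pseudogene lncRNA passed the adjusted threshold. In poly(A)+ RNA of P- roots against P+ roots 1 transcript was higher and 5 were lower by the study's rule among 38 tested (12.0% of all transcripts passed), and none passed at an adjusted p of 0.05 in limma (1.18% of all), although 6 had an unadjusted p under 0.05 (16.4% of all). Among the 17 locus sums 1 was higher and 1 lower by the study's rule (12.8% of all) and none passed the adjusted threshold (3.85% of all), while 2 had an unadjusted p under 0.05 (20.9% of all). The median log2 change of the 17 loci was -0.36 and that of all loci and genes 0.06, and 13 of the 17 had a value below 0.

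XLOC_011108, a spliced RNA of 837 bases over the pseudogene AT2G04110, was the locus lower in roots. It had 30.0 and 21.1 FPKM in P- roots, against 81.7 and 68.8 FPKM in P+ roots (log2 change -1.54, SE 0.36, adjusted p = 0.0631). The root groups were well apart, whereas shoots overlapped with 41.9 and 22.3 FPKM under P- and 43.1 and 28.6 FPKM under P+. The responses of the tissues differed by -1.34 (SE 0.51, adjusted p = 0.191). AT1G04985, the coding relative shown above, averaged 33.4 FPKM in P- roots and 66.3 FPKM in P+ roots (log2 change -0.99, SE 0.28, adjusted p = 0.0994), so lncRNA and relative had values on the same side and neither passed the adjusted threshold. The stretches shown differ at 15 bases, and how the mapping shared reads between them was not tested.

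XLOC_013903, the single-exon RNA of 4154 bases over the MtN3 pseudogene, was the locus higher in roots. Its level was 5.59 and 3.10 FPKM in P- roots, against 1.55 and 1.15 FPKM in P+ roots (log2 change 1.15, SE 0.38, adjusted p = 0.143). In roots both P- values lay above both P+ values. Shoots had 3.27 and 1.93 FPKM under P- and 1.46 and 1.92 FPKM under P+. There the groups were apart only by 1.926 against 1.922 FPKM, and the shoot change of 0.40 (SE 0.38, adjusted p = 0.571) passed neither rule. More than 50% of this RNA has near-identical copies elsewhere, as given above. XLOC_015007, the leucine-rich repeat pseudogene and, like XLOC_013903, a locus with a P1BS element in its upstream region, had overlapping Pi groups in both tissues. It had 2.51 and 1.7e-06 FPKM in P- roots and 15.0 and 0.13 FPKM in P+ roots. Shoots had 1.9e-08 and 0.118 FPKM under P- and 4.89 and 0.110 FPKM under P+ (log2 change -1.27, SE 1.25, adjusted p = 0.584). The study's supplement places this locus in its cluster lowered in shoots only.

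Of the loci named for Pi, the 3 that were higher by the study's rule in poly(A)+ RNA (XLOC_013903 in roots, XLOC_018264 and XLOC_018405 in shoots) carry a P1BS element in the 2 kb upstream, and the 2 that were lower (XLOC_008097 and XLOC_011108) carry none there. Of the loci past the study's rule in poly(A)- RNA, described below, XLOC_016479 and XLOC_018572 were higher and XLOC_016726 was lower, and none of the 3 carries one. XLOC_013903 and XLOC_018405 carry none within 1 kb. Over all loci with levels and an element, log2 changes in poly(A)+ RNA went both ways. In P- roots XLOC_013903 (1.15), XLOC_005935 (0.93) and XLOC_009278 (0.23) were higher. Lower there were XLOC_001820 (-1.84), XLOC_015007 (-1.18), XLOC_018264 (-0.60), XLOC_018405 (-0.52) and XLOC_017616 (-0.16). In shoots the changes ran from -1.27 (XLOC_015007) to 1.54 (XLOC_018264). With so few loci this is a description without a test.

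Among the other transcripts lower in P- roots by the study's rule were single isoforms of loci whose sum passed neither rule. TCONS_00031413 of XLOC_016726 had 0.0324 and 0.0349 FPKM in P- roots, against 8.33 and 3.82 FPKM in P+ roots (log2 change -2.70, SE 0.47, adjusted p = 0.0549). The sum of that locus was level, with 24.4 and 28.5 FPKM in P- roots and 24.4 and 29.7 FPKM in P+ roots. TCONS_00054456 of XLOC_029055 had 4.93 and 2.91 FPKM in P- roots, against 14.4 and 9.99 FPKM in P+ roots (log2 change -1.43, SE 0.41, adjusted p = 0.170). The sum of XLOC_029055 was 11.1 and 10.8 FPKM in P- roots, against 22.9 and 12.5 FPKM in P+ roots, without overlap and with a log2 change of -0.58 (SE 0.33, adjusted p = 0.343). XLOC_001820 and XLOC_015007 owe their mean in P+ roots to 1 library each, with 15.0 and 0.645 FPKM for XLOC_001820.

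**Figure D3:**
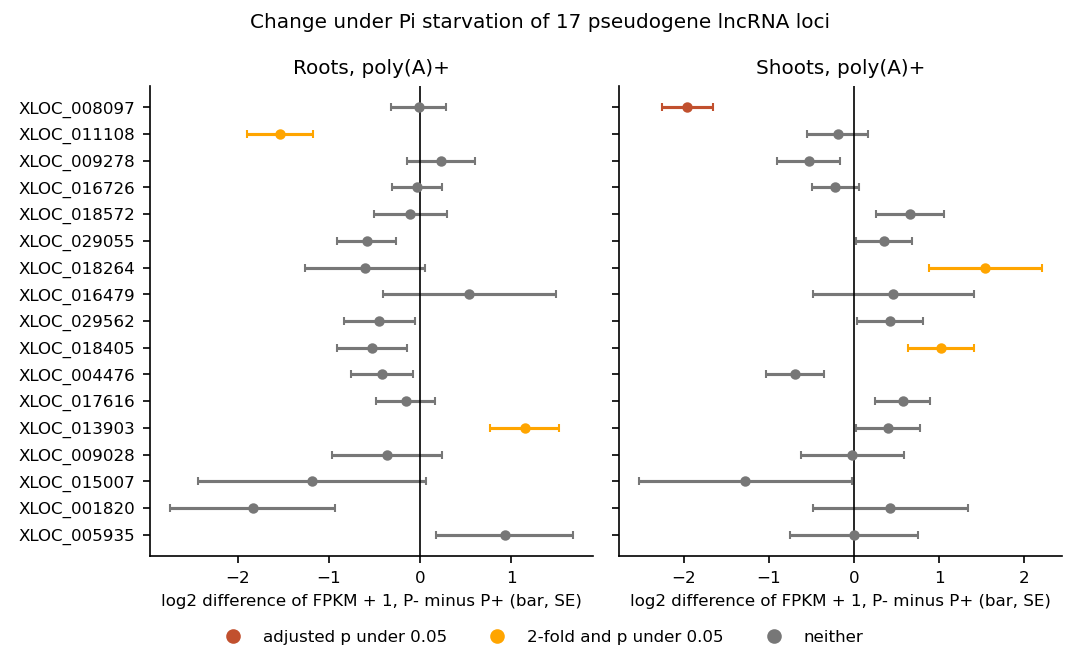
Log2 change of the summed level, P- minus P+, with its SE (horizontal axis, log2(FPKM + 1) scale) for the 17 pseudogene lncRNA loci tested in poly(A)+ RNA, in roots and in shoots; red marks an adjusted p under 0.05, orange the study's rule alone and grey neither. XLOC_008097 in shoots (-1.95) is the one red point, and XLOC_011108 (-1.54) and XLOC_013903 (1.15) are the orange points in roots.

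In poly(A)- RNA no pseudogene lncRNA passed the adjusted threshold for Pi starvation. In P- roots against P+ roots 3 of 34 transcripts passed the study's rule (6.7% of all), 2 higher and 1 lower, and none the adjusted threshold (0.0291% of all, that is 8 of 27497 transcripts), while 3 had an unadjusted p under 0.05 in limma (7.48% of all). In P- shoots against P+ shoots 2 of 34 passed the study's rule (11.9% of all), 1 in each direction, and none the adjusted threshold (0.269% of all), with 2 at an unadjusted p under 0.05 (13.3% of all). The shoot count was 8 without P- poly(A)- library 1. On locus sums 2 of 13 passed the study's rule in roots (7.42% of all) and 1 of 13 in shoots (13.3% of all), and none the adjusted threshold in either tissue (0.112% and 0.896% of all), while 2 in roots and 1 in shoots had an unadjusted p under 0.05 (8.54% and 15.2% of all).

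XLOC_016479, a short spliced RNA over the pseudogene AT3G56275, had 22.1 and 7.05 FPKM in poly(A)- RNA of P- roots, against 2.35 and 1.95 FPKM in P+ roots (log2 change 2.12, SE 0.63, adjusted p = 0.314). The groups did not overlap. XLOC_016726 had 5.47 and 1.62 FPKM in P- roots, against 7.06 and 21.7 FPKM in P+ roots (log2 change -1.72, SE 0.71, adjusted p = 0.563). In shoots XLOC_018572 had 8.58 and 15.4 FPKM under P-, against 0 and 5.83 FPKM under P+ (log2 change 2.26, SE 0.89, adjusted p = 0.291), and after rescaling it no longer passed the study's rule, while 1 other locus was then lower by it.

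Between roots and shoots 7 of the 17 loci differed in poly(A)+ RNA at the adjusted threshold, 5 of them with higher levels in roots. In poly(A)+ RNA 5 of 38 transcripts were higher in roots at the adjusted threshold and none lower, where 41.6% of all transcripts differed, and 6 passed the study's rule, all higher (36.8% of all). On locus sums 5 of 17 were higher and 2 lower at the adjusted threshold (55.1% of all, of which 65.4% were higher in roots), and 4 higher by the study's rule (41.4% of all). The median log2 difference of the 17 loci was 0.63 and that of all loci and genes 0.35. Rescaling lowered the median of all loci and genes by 0.29, and then 3 loci were higher and 2 lower (51.8% of all called were higher in roots). In 1 of the 7 called loci, XLOC_005935, and in 2 of the 5 called transcripts the shoot mean was under 1 FPKM, so these passed the filter on low values through the root libraries. The count of 6 transcripts became 16 without P+ root library 3 and lay between 4 and 16 over all fits that left out 1 library.

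XLOC_018572, the near relative of AT1G35320, showed the largest and firmest difference among these loci in poly(A)+ RNA. Root libraries held 34.9 and 47.2 FPKM under P- and 63.4 and 30.0 FPKM under P+, against 6.34 and 4.53 FPKM in P- shoots and 3.76 and 2.42 FPKM in P+ shoots. Every root library lay above every shoot library. The log2 difference was 3.09 (SE 0.29, adjusted p = 4.16e-05), and it held in every fit that left out 1 library (adjusted p 4.96e-05 to 0.000543) and under every other setting tried. AT1G35320 itself had means of 53.0 and 82.7 FPKM in roots under P- and P+, and of 4.47 and 3.85 FPKM in shoots under P- and P+, a log2 difference of 3.7 (adjusted p = 9.7e-06). The lncRNA and its relative thus had like patterns across tissues while sharing long stretches at 91.5% identity, and the part of shared reads was not tested.

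Isoforms of XLOC_018572 were also called, but as parts of the sum they give no separate support. TCONS_00035011, which held 70.1% of the poly(A)+ level of the locus, was higher in roots by 2.98 on the log2 scale (SE 0.30, adjusted p = 0.000268), and TCONS_00035010, with a shoot mean of 0.024 FPKM, by 3.06 (SE 0.48, adjusted p = 0.00218). TCONS_00035010 passed the filter through the roots, so its call is not read as support. In poly(A)- RNA root libraries had 28.2 and 17.9 FPKM of the locus under P- and 21.7 and 13.0 FPKM under P+, against 8.58 and 15.4 FPKM in P- shoots and 0 and 5.83 FPKM in P+ shoots. These ranges overlapped, and the log2 difference of 1.84 (SE 0.63, adjusted p = 0.053) passed the study's rule only. TCONS_00035011 alone was higher in roots there too (2.26, SE 0.55, adjusted p = 0.020), a call kept only without shoot P- library 2, shoot P+ library 1 or shoot P+ library 2 and at 0.0503 to 0.0849 without each of the others.

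XLOC_016479 was seen mostly in roots. In poly(A)+ RNA it had 36.9 and 24.1 FPKM in P- roots and 52.4 and 7.39 FPKM in P+ roots, against 1.51 and 11.5 FPKM in P- shoots and 4.23 and 2.14 FPKM in P+ shoots (log2 difference 2.42, SE 0.67, adjusted p = 0.0153). One P- shoot library lay above one P+ root library. The call was lost without P- root library 2 (adjusted p = 0.0576), P- shoot library 1 (0.0559) or P+ shoot library 2 (0.0558). In poly(A)- RNA the locus was listed at 0 in all 4 shoot libraries and had 1.95 to 22.1 FPKM in the 4 root libraries. It passed the filter through the roots alone, so its call there is not read as support.

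XLOC_017616, a single-exon RNA of 2425 bases over AT3G13965 (chr3:4610938-4613362, minus strand), differed less but evenly. Its poly(A)+ level was 6.59 and 8.41 FPKM in P- roots and 10.0 and 7.06 FPKM in P+ roots, against 5.16 and 5.35 FPKM in P- shoots and 3.81 and 2.68 FPKM in P+ shoots (log2 difference 0.80, SE 0.23, adjusted p = 0.0172). No shoot library reached a root library. The call was lost after rescaling (0.0795), in one fit of all 16 libraries (0.0703), and without P- root library 3 (0.0522), P- shoot library 1 (0.0564), P- shoot library 2 (0.0519) or P+ shoot library 2 (0.0726). In poly(A)- RNA it was 4.73 and 5.70 FPKM in P- roots and 8.38 and 3.94 FPKM in P+ roots, against 1.55 and 1.02 FPKM in P- shoots and 0 and 1.16 FPKM in P+ shoots. The log2 difference was 1.83 (SE 0.44, adjusted p = 0.0143) and stayed between 1.55 and 2.11 without any 1 library. Its shoot mean there was 0.933 FPKM, so it passed the filter through the roots and its call is not read as support.

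**Figure D4:**
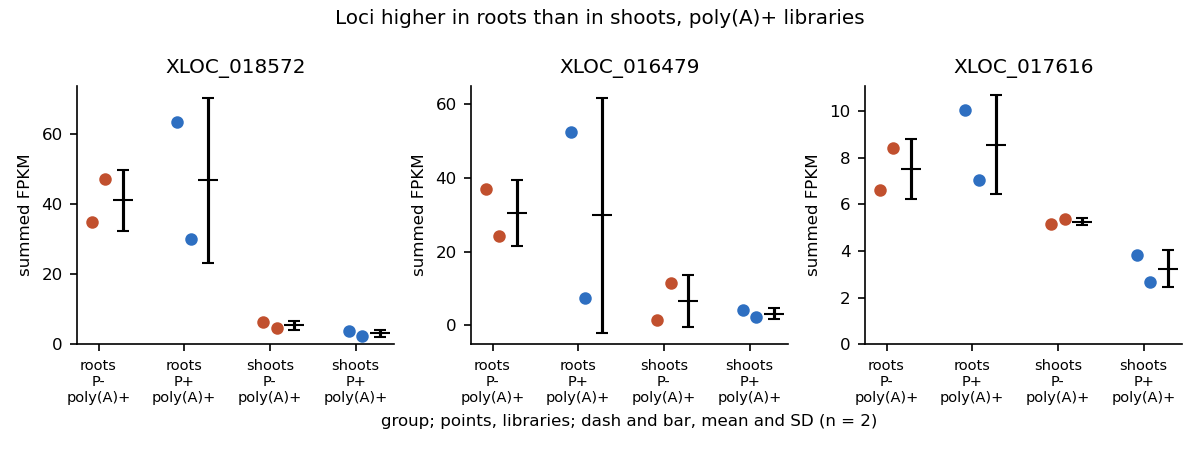
Summed poly(A)+ FPKM (vertical axis, linear) of XLOC_018572, XLOC_016479 and XLOC_017616 in P- roots, P+ roots, P- shoots and P+ shoots, with 1 point per library (red P-, blue P+) and the mean and SD of the 2 libraries. Root points lie above shoot points for XLOC_018572 (30.0 to 63.4 against 2.42 to 6.34 FPKM) and XLOC_017616, and 1 root point of XLOC_016479 (7.39 FPKM) falls among the shoot points.

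Further calls between the tissues in poly(A)+ RNA were less firm. XLOC_005935, which matches the chaperonin gene Cpn60beta3, had 8.92 and 0.726 FPKM in P- roots and 2.14 and 0.507 FPKM in P+ roots and was listed at 0 in all shoot libraries. It passed the filter only through the roots, where it had to be the higher, so its call is not read as support, and it fell below the filter without P- root library 2. XLOC_009278 had 16.9 and 32.7 FPKM in P- roots and 17.9 and 22.2 FPKM in P+ roots, against 8.07 and 13.1 FPKM in P- shoots and 15.0 and 15.7 FPKM in P+ shoots (0.74, SE 0.26, adjusted p = 0.0429). Its call held only without P- root library 2, P- shoot library 2 or P+ root library 2, reached 0.0888 to 0.151 without each of the others, and was lost after rescaling (0.170). Among its 12 member isoforms TCONS_00017559 was called, higher in roots by 1.59 (SE 0.47, adjusted p = 0.0331), which was kept only without P- root library 3, P+ root library 2 or P+ shoot library 2. The shoot mean of this isoform was 0.428 FPKM, so it passed the filter through the roots and its call is not read as support.

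The 2 loci lower in roots were XLOC_029055 and XLOC_004476. The ABC transporter pseudogene locus XLOC_029055 had 11.1 and 10.8 FPKM in P- roots and 22.9 and 12.5 FPKM in P+ roots, against 29.0 and 28.3 FPKM in P- shoots and 19.1 and 25.8 FPKM in P+ shoots (-0.84, SE 0.23, adjusted p = 0.0147). One P+ root library lay among the shoot libraries, and the call was lost without P- shoot library 1 (0.0521) or P+ shoot library 2 (0.0653) and in one fit of all 16 libraries (0.401). XLOC_004476 had 6.55 and 4.38 FPKM in P- roots and 5.66 and 9.84 FPKM in P+ roots, against 7.95 and 8.73 FPKM in P- shoots and 14.2 and 14.0 FPKM in P+ shoots (-0.69, SE 0.24, adjusted p = 0.039). Most of that sum is the non-member transcript named above, and the call held only without P- root library 2 or P+ root library 3 and reached 0.074 to 0.112 without each of the others.

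In poly(A)- RNA 4 of 34 transcripts were higher in roots than in shoots at the adjusted threshold and none lower (30.3% of all), and 6 were higher and 2 lower by the study's rule (35.9% of all). That count of 8 became 13 without P- shoot library 1 and 5 without P- root library 2 or P+ root library 2. On locus sums 3 of 13 were higher and none lower at the adjusted threshold (40.1% of all), and 5 were higher and 1 lower by the study's rule (41.5% of all). The shoot mean was under 1 FPKM in 2 of the 3 called loci (XLOC_016479 and XLOC_017616) and in 2 of the 4 called transcripts. Beside XLOC_016479 and XLOC_017616 this was XLOC_008097, with 53.4 and 47.2 FPKM in P- roots and 112 and 38.4 FPKM in P+ roots, against 9.60 and 28.1 FPKM in P- shoots and 19.5 and 35.3 FPKM in P+ shoots (1.42, SE 0.46, adjusted p = 0.0454). Every root library lay above every shoot library, but the call held only without P+ root library 3 or P- shoot library 2, reached 0.0616 to 0.147 without each of the others, and was lost after rescaling (0.0767). The median of the 13 loci was 0.02 and that of all loci and genes 0.44.

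In roots and in P+ shoots most of these RNAs were classed as poly(A)+. By the study's classes under P+, 31 of 52 transcripts in roots were poly(A)+ (a poly(A)+ to poly(A)- ratio of 2 or more), 10 bimorphic and 11 poly(A)- (a ratio of 0.5 or less), and in shoots 29, 10 and 11, with 2 at 0 in both fractions. In roots 59.6% and in shoots 55.8% were thus poly(A)+, against 42.5% and 47.8% of the other 1107 assembled lncRNAs. The study itself reports a clearly larger poly(A)+ share under P+, over TAIR10 and assembled lncRNAs together. The reason for this gap was not tested. These shares count isoforms of 1 locus singly, and no share by locus was computed for the other lncRNAs. The root count of 31 fell to 20 without P+ root poly(A)+ library 2. By locus, 12 of 19 were poly(A)+ in P+ roots and 11 in P+ shoots, and 2 and 1 were poly(A)-. Under P-, 34 of 52 transcripts (65.4%) were poly(A)+ in roots, against 39.0% of the other assembled lncRNAs, and 22 (42.3%) in shoots, against 41.5%, so that P- shoots were near the level of the others.

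Tested over both Pi conditions, poly(A)+ RNA of roots exceeded poly(A)- RNA for 3 of 37 transcripts at the adjusted threshold and none was lower (9.67% of all), and 9 were higher and 1 lower by the study's rule (17.6% of all), a count of 10 that became 6 without P+ root poly(A)+ library 2. In shoots 4 were higher and 1 lower at the adjusted threshold (23.9% of all), and 9 higher and 3 lower by the study's rule (27.7% of all). On locus sums 2 of 16 were higher in roots (15.7% of all) and 6 higher and 1 lower in shoots (30.4% of all) at the adjusted threshold, and 7 and 8 passed the study's rule (18.0% and 27.7% of all). The median log2 difference of the 16 loci was 0.98 in roots and 0.77 in shoots, and that of all loci and genes 0.26 and 0.38.

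XLOC_029562, over the pseudogene AT5G14840 (chr5:4798329-4800892, minus strand), was the locus called in both tissues. In roots it had 11.0 and 12.2 FPKM under P- and 23.7 and 10.8 FPKM under P+ in poly(A)+ RNA, against 5.17 and 4.63 FPKM and 4.91 and 6.60 FPKM in poly(A)- RNA (log2 difference 1.22, SE 0.30, adjusted p = 0.0191). In shoots it had 11.4 and 17.1 FPKM and 9.68 and 10.6 FPKM in poly(A)+ RNA, against 3.85 and 5.17 FPKM and 1.50 and 2.57 FPKM in poly(A)- RNA (1.68, SE 0.30, adjusted p = 0.00185). No poly(A)- library reached a poly(A)+ library in either tissue. The shoot call held without any 1 library, and the root call was lost without P- poly(A)- library 3 (0.0581), P- poly(A)+ library 3 (0.0724), P+ poly(A)- library 2 (0.0553) or P+ poly(A)+ library 2 (0.0673). Most of this RNA has near-identical copies, as given above.

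XLOC_016726, the relative of TBL32, was the other locus called in roots. Its poly(A)+ level was 24.4 and 28.5 FPKM in P- roots and 24.4 and 29.7 FPKM in P+ roots, against 5.47 and 1.62 FPKM and 7.06 and 21.7 FPKM in poly(A)- RNA (1.89, SE 0.39, adjusted p = 0.0104), and the call held without any 1 library. In shoots the fractions overlapped (0.19, SE 0.39, adjusted p = 0.748), with 16.1 to 24.5 FPKM in poly(A)+ and 9.93 to 28.2 FPKM in poly(A)- RNA. The isoforms shifted too: TCONS_00031414 held 72.1% of the poly(A)+ level and led in all 8 poly(A)+ libraries, and held 39.0% of the poly(A)- level. In roots that isoform was higher in poly(A)+ RNA by 2.65 (SE 0.43, adjusted p = 0.00617).

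XLOC_008097 in shoots showed the largest fraction difference of the called loci. Its poly(A)+ level was 47.7 and 63.7 FPKM in P- shoots and 229 and 205 FPKM in P+ shoots, against 9.60 and 28.1 FPKM and 19.5 and 35.3 FPKM in poly(A)- RNA (2.34, SE 0.38, adjusted p = 0.00127), and the call held without any 1 library and under every other setting tried. TCONS_00015679 differed by 2.59 (SE 0.35, adjusted p = 0.000757) and TCONS_00015678 by 1.80 (SE 0.50, adjusted p = 0.0243), of which the second was kept only without P- poly(A)+ library 2, P- poly(A)- library 2 or P+ poly(A)- library 2. The intron-retaining isoform thus had a higher FPKM in poly(A)+ than in poly(A)- RNA of shoots. Since FPKM are scaled within a library, differences between the fractions do not give the share of the molecules in each. In roots the locus difference of 1.04 (SE 0.38, adjusted p = 0.0855) passed the study's rule only.

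The other loci higher in poly(A)+ RNA of shoots were XLOC_017616, XLOC_016479, XLOC_029055 and XLOC_009028. XLOC_017616 differed by 1.49 (SE 0.33, adjusted p = 0.00641), and the call held without any 1 library. XLOC_016479, listed at 0 in all shoot poly(A)- libraries, differed by 2.25 (SE 0.62, adjusted p = 0.0185), which was lost without P- poly(A)+ library 2 (0.0818) or P+ poly(A)+ library 1 (0.0668) and with a pseudocount of 5 FPKM (0.153). XLOC_029055 had 29.0 and 28.3 FPKM in P- shoots and 19.1 and 25.8 FPKM in P+ shoots in poly(A)+ RNA, against 0 and 14.1 FPKM and 7.13 and 5.27 FPKM in poly(A)- RNA (2.32, SE 0.76, adjusted p = 0.0379). That call held only without P- poly(A)- library 2 and reached 0.0646 to 0.104 without each of the other 7, and it was lost with the replicate block (0.0656). In roots TCONS_00054456 of XLOC_029055 was higher in poly(A)+ RNA by 2.98 (SE 0.55, adjusted p = 0.00965), with 4.93 and 2.91 FPKM under P- and 14.4 and 9.99 FPKM under P+, against under 0.01 FPKM in all 4 poly(A)- libraries. XLOC_009028 (1.45, SE 0.50, adjusted p = 0.0457) had 1.21 and 2.32 FPKM in P- and 1.20 and 2.43 FPKM in P+ shoots, against 0 in all 4 poly(A)- libraries, and its call was lost without any 1 of the 8 libraries (0.0736 to 0.143).

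XLOC_009278, over AT2G19250, was the locus lower in poly(A)+ RNA. In shoots it had 8.07 and 13.1 FPKM under P- and 15.0 and 15.7 FPKM under P+ in poly(A)+ RNA, against 27.3 and 40.2 FPKM and 25.3 and 21.7 FPKM in poly(A)- RNA (-1.09, SE 0.31, adjusted p = 0.0219). Every poly(A)- library lay above every poly(A)+ library, as for 7.31% of all loci and genes in shoots. The call was lost without P- poly(A)- library 2 (0.0608), P- poly(A)+ library 1 (0.0878), P+ poly(A)- library 1 (0.0535), P+ poly(A)+ library 1 (0.0646) or P+ poly(A)+ library 2 (0.0617). Of its 12 member isoforms none led: the most abundant, TCONS_00017567, held 17.1% of the members' poly(A)+ level. TCONS_00017563, a form with 2 exons, was lower in poly(A)+ RNA by -1.71 (SE 0.53, adjusted p = 0.0368), a call kept only without P+ poly(A)- library 2 and lost with the replicate block (0.0631). In roots the sum did not pass either rule (0.45, SE 0.31, adjusted p = 0.341).

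The ends of the RNAs were read for the polyadenylation signal AATAAA in the last 50 bases. It was present in 14 of the 52 transcripts (26.9%), all from XLOC_009278 and XLOC_018405, against 7.04% of the other nuclear assembled lncRNAs. As 12 of the 14 are isoforms of XLOC_009278, the share by locus is 2 of 19 (10.5%), against 5.47% of the 988 other loci. The ends of these loci (chr2:8355898-8355947, plus strand, and chr3:10399952-10400001, minus) are shown with the signal in capitals, beside that of XLOC_016479 (chr3:20873670-20873719, plus), which has none, because XLOC_009278 was the locus higher in poly(A)- RNA of shoots and XLOC_016479 was listed at 0 there.
XLOC_009278: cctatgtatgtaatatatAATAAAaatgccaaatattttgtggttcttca
XLOC_018405: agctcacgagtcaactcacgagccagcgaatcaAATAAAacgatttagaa
XLOC_016479: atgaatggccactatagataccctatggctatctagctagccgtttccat

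The assembled ends need not be the true ends, and a missing run of letters says only that it is not in this window. XLOC_018405, which also ends with the signal, was higher in poly(A)+ RNA of roots by the study's rule (1.43, SE 0.47, adjusted p = 0.0602), and its leading isoform changed with the fraction: TCONS_00034768 held 74.9% of the poly(A)+ level and TCONS_00034767 held 62.5% of the poly(A)- level.

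**Figure D5:**
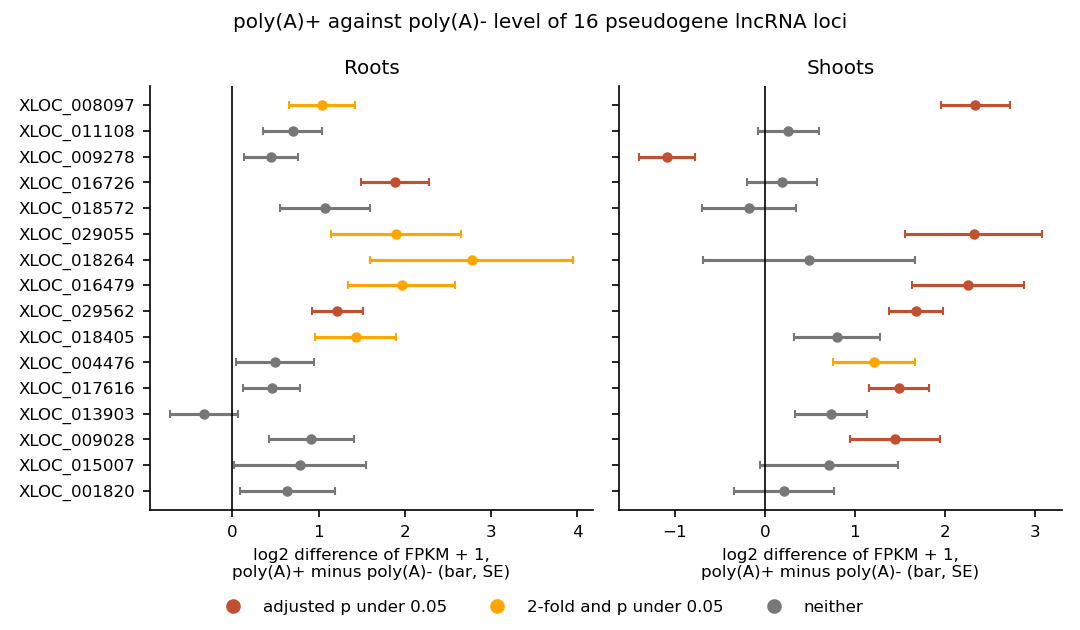
Log2 difference of the summed level, poly(A)+ minus poly(A)-, with its SE (horizontal axis, log2(FPKM + 1) scale) for the 16 pseudogene lncRNA loci tested, in roots and in shoots; red marks an adjusted p under 0.05, orange the study's rule alone and grey neither. Most points lie right of 0 in both tissues, and XLOC_009278 in shoots (-1.09) is the red point on the left.

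Genes that silence TEs and genes that remove faulty RNAs were followed beside the lncRNAs, since pseudogene and TE transcripts are among the known targets of both systems. Of 34 silencing genes 33 were tested in poly(A)+ RNA, and none passed the adjusted threshold under Pi starvation in either tissue, with 10 at an unadjusted p under 0.05 in roots, where 20.9% of all loci and genes had one, and 2 in shoots (24.3% of all). In P- roots their median log2 change was 0.65 (all loci and genes 0.06), and 5 of the 33 were higher by the study's rule (6.87% of all were higher and 12.8% passed in either direction): HEN1, a small RNA methyltransferase (1.34), SHH1, a histone reader that recruits RNA polymerase IV (1.29), the DNA methyltransferase CMT2 (1.21), and the Dicer enzymes DCL3 (1.13) and DCL2 (1.03). In P- shoots the median was -0.14 (all 0.14) and 1 was lower by that rule, where 15.1% of all passed. Of the 18 RNA surveillance genes, which include UPF1 of nonsense-mediated decay and the nuclear exosome helicase HEN2, none passed either rule in poly(A)+ RNA of either tissue, 2 had an unadjusted p under 0.05 in roots (20.9% of all) and 0 in shoots (24.3% of all), with medians of 0.41 in roots and -0.11 in shoots.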

How the data were processed

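Per the labels and the study's methods, the authors aligned reads to TAIR10 with TopHat2, removed organelle reads, assembled transcripts with Cufflinks, and computed the FPKM tables with eXpress, which gives 1 value per transcript in every library. The deposited log2 fold changes, p-values and cluster columns are the authors' own comparisons and did not enter the fits. FPKM are not counts, so the study's DESeq2 test was not rerun. The 3 FPKM tables (coding transcripts, TAIR10 lncRNAs, assembled lncRNAs) were joined, 1 FPKM was added before log2, features averaging 1 FPKM or more across the fitted libraries were kept, and limma 3.58.1 (R 4.3.3, trended variances) fitted the 8 libraries of a fraction (Pi and tissue) or all 16 (fraction). All p-values are two-sided. Log2 differences are on the log2(FPKM + 1) scale, which understates changes of low RNAs. Adjustment was by Benjamini and Hochberg across every feature tested in a fit. Locus sums add the FPKM of all transcripts of a locus.

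The root columns of the FPKM tables are numbered 2 and 3, which the labels tie to a group but not to a replicate, so root libraries were not paired and the numbers only name columns. The study's methods call the replicates independent collections of seedlings, each divided into roots and shoots. Both fractions came from the same RNA, which pairs the same-numbered shoot libraries of the fractions. For the fractions, blocked values stand beside the locus calls they change, and for Pi starvation, where only the numbers are shared, the block is given with the alternatives. Alignments used blastn 2.17.0 and the sequence and RefSeq annotation of TAIR10; coordinates were checked by intron ends, of which 89.4% were GT and AG. The calculation was tested on simulated data. The members and gene lists were chosen with earlier results of these data known. Named are members called at an adjusted p of 0.05 in any comparison, the 3 loci with the largest Pi change per comparison past the study's rule, the 5 most abundant loci per fraction, loci with 4 or more transcripts, and the 2 loci of the list with a P1BS entry in the study's supplement. Members named outside these rules were picked with their values in view. Alternatives were other pseudocounts and filters, rescaled libraries, other fits, locus sums and leaving out each library.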

Additional observations from a re-analysis of the deposited data

How the results depend on the processing

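Counts of pseudogene lncRNAs past the study's rule depended on low values and on single libraries, and the cause was not tested. In the order Pi starvation in roots and shoots in poly(A)+ RNA, the same in poly(A)- RNA, roots against shoots in poly(A)+ and poly(A)- RNA, and the fractions in roots and shoots, the counts were 6, 2, 3, 2, 6, 8, 10 and 12. With a pseudocount of 5 FPKM the counts for Pi starvation became 2 in roots (poly(A)+) and 0 and 1 in poly(A)- RNA of roots and shoots, those between tissues 3 and 2, and those between fractions 5 and 3. With a minimum mean of 5 FPKM the same counts became 2, 1, 1, 3, 3, 5 and 7, where fewer members were tested. A pseudocount of 0.1 FPKM gave 1 for shoots in poly(A)- RNA. One fit of all 16 libraries gave 3 for roots in poly(A)+ RNA, and locus sums, with fewer units, gave 2 there and 1 for shoots in poly(A)- RNA. The fit of shoots alone gave 4 in poly(A)+ and 0 in poly(A)- RNA, and so did the fit with the replicate block. Leaving out 1 library gave 5 to 9, 1 to 3, 2 to 3, 2 to 8, 4 to 16, 5 to 13, 6 to 12 and 9 to 13, and 20 to 35 and 26 to 41 transcripts classed poly(A)+ in roots and shoots.

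Shoot libraries share replicate numbers, and deviations of same-numbered libraries had correlations of 0.158, 0.0423, 0.0595 and 0.073 over 2 pairs each (P- with P+ in poly(A)+ and poly(A)- RNA, then the fractions under P- and P+), too few to show whether P- and P+ libraries were paired. Under the block XLOC_018264 and XLOC_018405 passed the adjusted threshold for Pi starvation in shoots (adjusted p 0.0113 and 0.0172), as did TCONS_00015678 (0.0202), and XLOC_029055 lost its fraction call (0.0656), as did TCONS_00017563 and TCONS_00033248 (0.0631 and 0.0579). Of 20 called locus differences, 7 held in every fit without 1 library and in every other alternative, 1 of them XLOC_016479 in poly(A)- RNA, which passed the filter through roots alone. Another of the 7, XLOC_017616 in poly(A)- RNA, had a shoot mean under 1 FPKM and passed the filter through roots too. The block changed no other call of the loci and transcripts named, and no called difference changed sign under any alternative. P1BS elements were found for 4 loci in 1 kb and 8 in 2 kb. Differences of low RNAs are limited by depth, which was not modelled and was lowest for nuclear reads in shoot poly(A)- RNA.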

Other observations

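XLOC_018264 was listed at 0 in both P- root poly(A)- libraries and in 1 of 2 libraries of each shoot poly(A)- group, with 41.2 FPKM in the other P- shoot library and 20.5 FPKM in the other P+ shoot library. Its 7 isoforms had no common leader: TCONS_00034505 held 23.5% of the poly(A)+ level and TCONS_00034504 held 21.2% of the poly(A)- level. XLOC_006023, which matches coding gene AT4G11550 over 97.6% of its length, was at 0 in 12 of 16 libraries and never exceeded 1.14 FPKM.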
